A study of Mus musculus with 136 samples.

Results

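The receptors for insulin and insulin-like growth factors (Insr, Igf1r), their docking proteins (Irs1, Irs2), the ligand Igf1 and 5 binding proteins (Igfbp1 to Igfbp5) were examined in embryos and visceral yolk sacs from diabetic and normoglycemic pregnancies of the NOD mouse. The members were given as a list of gene symbols, and all 10 were found among the 47643 genes of the table of molecule counts.

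Embryo and visceral yolk sac of the same conceptus were collected at embryonic day 8.5 and profiled as separate libraries, 132 in all from 66 concepti. NOD females become hyperglycemic spontaneously through autoimmune loss of pancreatic beta cells. Diabetic females were mated to normoglycemic NOD males. Normoglycemic dams were of the same strain, so that the controls carried the same diabetes-prone background. Each tissue was divided by maternal condition and by somite stage, the yolk sac taking the stage of its embryo. At 5-6 somite pairs there were 17 concepti of normal dams and 17 of diabetic dams, at 7-9 somite pairs 16 and 16. Ages of the dams were not part of the labels. The concepti came from 22 litters, 12 of diabetic and 10 of normal dams, and dam D24M15 alone gave 7 of the 16 later concepti of diabetic dams. Tests across genes counted each conceptus as a replicate, although littermates share a dam.

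Insulin acts mainly through Insr, while both insulin-like growth factors act mainly through Igf1r. The activated receptors phosphorylate Irs1 and Irs2, which recruit PI3-kinase and start the AKT, mTOR and FOXO branches of the pathway. Binding proteins hold the growth factors in extracellular fluid, where they can limit or prolong access of the ligand to its receptor, and in adult liver transcription of Igfbp1 is known to be repressed by insulin through FOXO factors. Before the placenta is complete, the visceral yolk sac nourishes the rodent embryo and secretes many proteins that the liver makes later.

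The core CAAAACA of the insulin response sequence, to which FOXO factors bind in the Igfbp1 gene, was sought on both strands of promoters from RefSeq (GRCm38.p6, 250 bases before to 50 bases after each gene's start). Entries were found for 9 of the 10 members. The core occurred in those of Igfbp1, Irs1 and Irs2, and in 6.28% of all 32851 promoters. Below are the 250 bases before the start of these 3 genes, 5′ to 3′ on the strand of the gene, for Igfbp1 at chr11:7197537-7197786 (plus strand), Irs1 at chr1:82291440-82291689 (minus strand) and Irs2 at chr8:11008930-11009179 (minus strand), shown because they hold the core, with CAAAACA or its reverse complement TGTTTTG in capitals.
Igfbp1: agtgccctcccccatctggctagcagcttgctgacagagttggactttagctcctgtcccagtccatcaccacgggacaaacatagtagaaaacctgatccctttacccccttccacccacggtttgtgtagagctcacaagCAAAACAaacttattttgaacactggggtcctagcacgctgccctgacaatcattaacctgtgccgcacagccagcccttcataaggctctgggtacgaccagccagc
Irs1: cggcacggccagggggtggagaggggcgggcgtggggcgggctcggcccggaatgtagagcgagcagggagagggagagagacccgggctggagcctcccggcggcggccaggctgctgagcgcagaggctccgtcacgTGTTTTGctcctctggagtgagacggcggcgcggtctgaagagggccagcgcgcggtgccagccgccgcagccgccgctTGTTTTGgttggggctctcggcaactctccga
Irs2: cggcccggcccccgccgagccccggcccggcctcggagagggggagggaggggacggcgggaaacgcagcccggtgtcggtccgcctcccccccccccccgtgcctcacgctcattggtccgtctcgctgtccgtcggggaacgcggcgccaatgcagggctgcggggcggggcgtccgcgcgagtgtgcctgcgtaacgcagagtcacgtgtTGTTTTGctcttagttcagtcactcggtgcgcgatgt
The single match in Igfbp1 reads forward and begins 108 bases before the start. Both matches of Irs1, at 111 and 32 bases before the start, and the match of Irs2, at 37 bases, read in reverse. The E-box CACGTG, present in 7.15% of all promoters, also occurred in Irs1 (where it overlaps the match at 111 bases), Irs2 and Igfbp2. TATAAA, in 13.6% of all promoters, was found in Igfbp4. GTAAACA, a further FOXO site, was not found in these windows of the members and was present in 3.65% of all promoters. Base composition differed, with 54.3% G and C in Igfbp1 against 71.3% in Irs1 and 72.0% in Irs2. Matching letters describe the sequence and were not tested for binding.

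Along the genome, 2 pairs of binding protein genes are neighbors (GENCODE M21, GRCm38). Igfbp1 (ENSMUSG00000020429, chr11:7197782-7202546, plus strand) lies 3539 bp from Igfbp3 (ENSMUSG00000020427, chr11:7206086-7213923, minus strand), and Igfbp2 (ENSMUSG00000039323, chr1:72824503-72852474, plus strand) lies 5457 bp from Igfbp5 (ENSMUSG00000026185, chr1:72857932-72874884, minus strand). In both pairs the 3′ ends, where the method counts, face each other. Igfbp4 (ENSMUSG00000017493) lies apart from these at chr11:99041244-99054392, plus strand. The receptors are at chr8:3122061-3279617, minus strand (Insr, ENSMUSG00000005534), and chr7:67952827-68233668, plus strand (Igf1r, ENSMUSG00000005533). Irs1 (ENSMUSG00000055980) is at chr1:82233101-82291416 and Irs2 (ENSMUSG00000038894) at chr8:10984681-11008458, both on the minus strand, and Igf1 (ENSMUSG00000020053) is at chr10:87858265-87937042, plus strand. The annotated transcripts Gm16180, Gm9747, 9530052E02Rik and Igf1os overlap Insr, Irs1, Irs2 and Igf1, respectively. The strand setting of the counting is not given in the sources used here, so that counts of these 4 members may include the overlapping transcript.

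Libraries held from 1017901 to 5757211 molecules, with a median of 2337159. Neural markers (Sox1, Sox2, Pax6, Otx2) summed to 522 to 1349 normalized counts in embryos and 0 to 62.7 in yolk sacs. Markers of visceral endoderm, 10 in all, summed to 10372 to 53508 in yolk sacs and 96.3 to 3362 in embryos. Decidual markers (Prl8a2, Prl3c1) reached 339 and 719 in yolk sacs of diabetic dams at the early and later stage, against 15.9 and 36.1 in those of normal dams. Both diabetic maxima came from dam D24M15. Group medians were 9.78 and 6.10 for diabetic and 1.45 and 3.34 for normal dams. These sums are almost wholly Prl8a2, since Prl3c1 was at most 1.31 in a yolk sac. A total of 4 libraries correlated less well with the other libraries of their tissue, over both stages and conditions, with median r between 0.815 and 0.866. They were a later yolk sac and a later embryo of diabetic dam D28M36, an early yolk sac of diabetic dam D28M02 and an early yolk sac of normal dam N28M06. This yolk sac of D28M36 was also the library with the fewest molecules.

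Levels are given as normalized counts, that is molecule counts divided by a size factor computed over all 132 libraries. The method counts 1 tag at the 3′ end of each transcript, so a level does not scale with transcript length. In embryos Igfbp4, a binding protein cleaved by the protease PAPP-A, was the most abundant member in every library, with 479.6 to 1103 normalized counts and a median of 824.5. Igf1r, Igfbp2 and Igfbp5 followed at medians of 319.5, 317 and 318, and their order changed between groups. Irs2 came next and exceeded Irs1 in all 66 embryos. Below them were Insr and then Igf1 and Igfbp3, of which Igf1 was the higher in 8 of 17 early embryos of diabetic dams and 14 of 17 of normal dams. Igfbp1 ranked last. In yolk sacs Igfbp4 again ranked first in every library, and Igfbp2, Irs2, Igfbp5, Igf1r and Igf1 followed in orders that varied among libraries. For example, Igfbp2 exceeded Irs2 in 9 of 17 early yolk sacs of normal dams and 7 of 17 of diabetic dams.

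**Figure D1:**
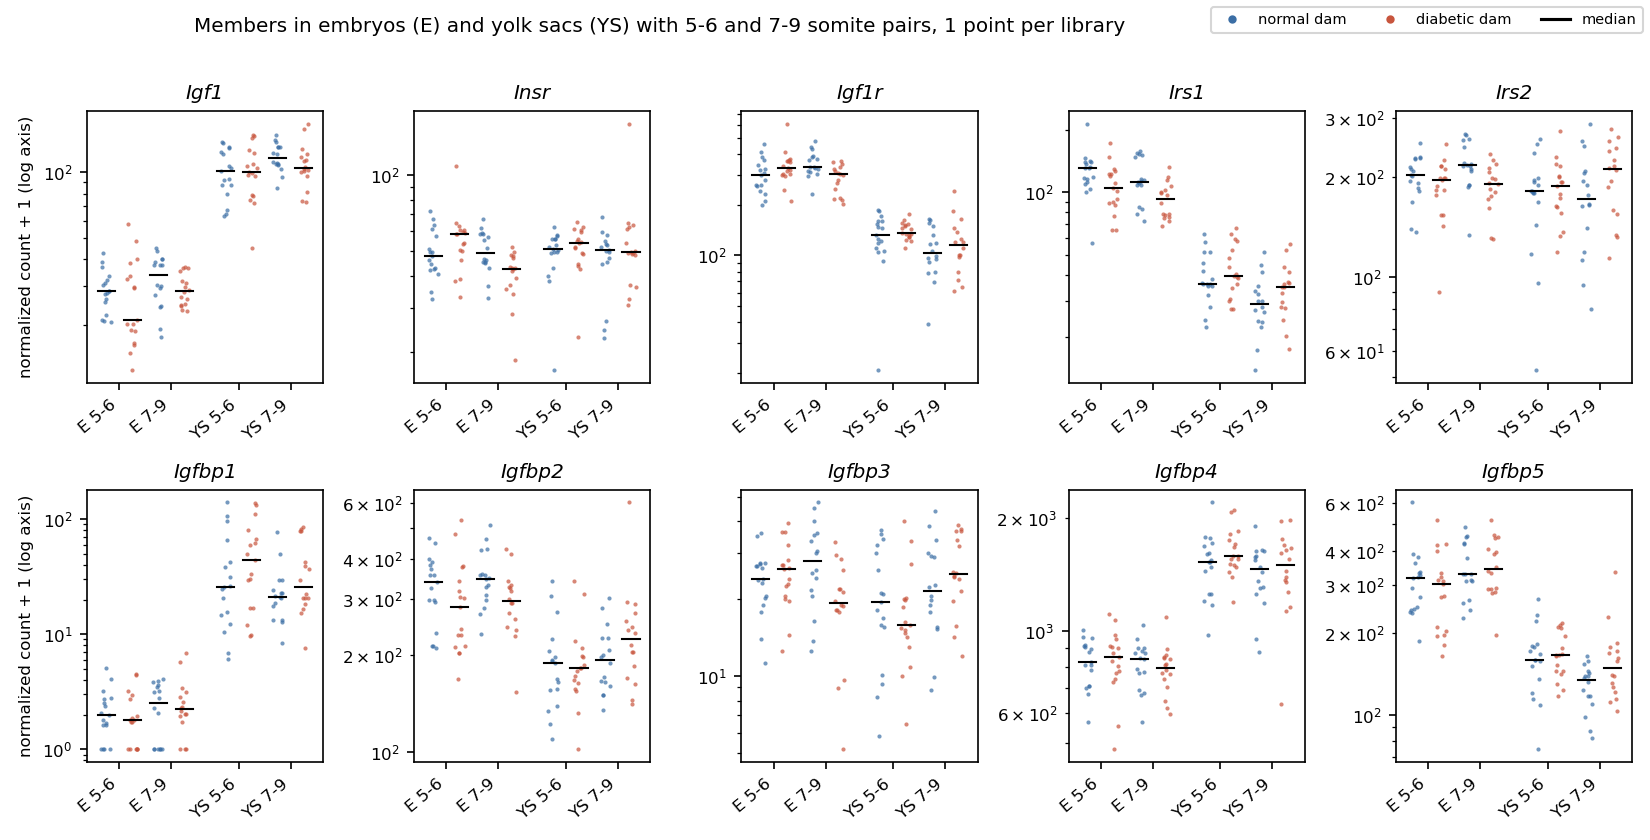
Normalized counts + 1 (log axis) of the 10 members, 1 panel per gene and 1 point per library, in embryos (E) and yolk sacs (YS) of either stage (5-6 or 7-9 somite pairs) from normal and diabetic dams, with lines at the medians. Igf1 and Igfbp1 lie higher in yolk sacs, Igf1r and Irs1 higher in embryos, and points of normal and diabetic dams overlap in every panel.

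Yolk sac and embryo differed most in the binding protein Igfbp1 and the ligand Igf1, both higher in the yolk sac, and in the receptor Igf1r and the docking protein Irs1, both higher in the embryo. The differences of Insr and Irs2 between the tissues did not pass the test at either stage. With edgeR's quasi-likelihood test, 8 of 10 members passed at 5-6 somite pairs (3 higher and 5 lower in the yolk sac) and 7 of 10 at 7-9 (3 higher and 4 lower). Igfbp1 is counted among the higher, although it passed the filter on low counts only through its yolk sac counts. Of all genes tested, 79.2% were called at the early stage (39.4% higher, 39.8% lower) and 81.3% at the later (38.7% higher, 42.6% lower), so that the share of members was close to the background. Median log2 fold changes of the members were -0.17 and -0.01, beside 0.00 and -0.04 for all genes tested. In whole tissues, a lower level can come from fewer cells of a type or from less RNA per cell, and these cannot be told apart.

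**Figure D2:**
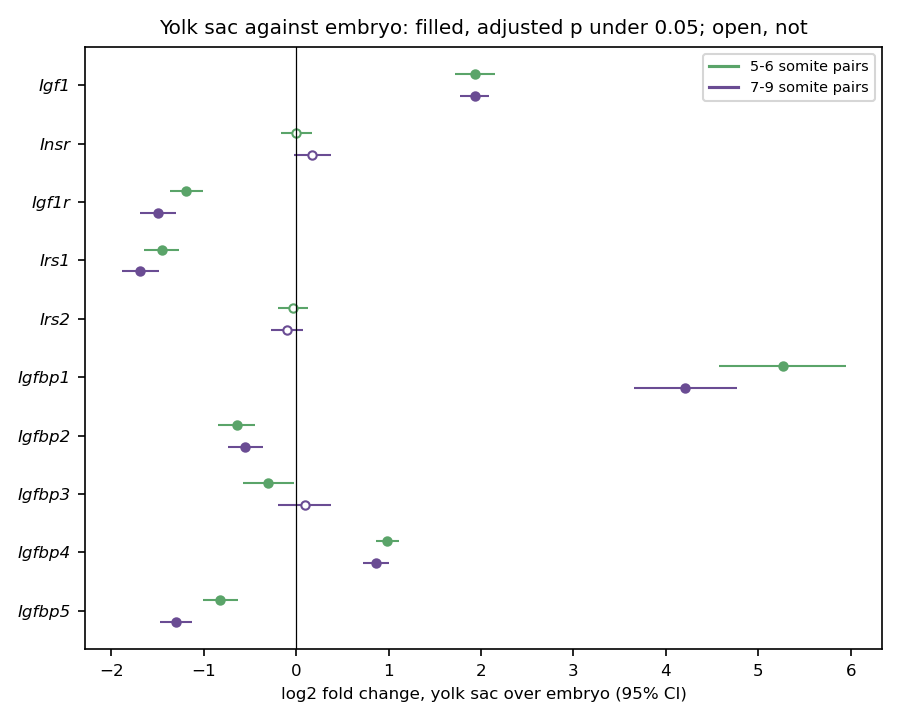
Log2 fold change of each member, yolk sac over embryo, with its 95% confidence interval at 5-6 and 7-9 somite pairs (filled points, adjusted p under 0.05). Igfbp1 lies farthest to the right at 5.26 and 4.21, and Irs1 farthest to the left at -1.46 and -1.69.

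Among the receptors, Insr ranged from 17.6 to 107 normalized counts in embryos, with a median of 46.9, and from 15.9 to 159 in yolk sacs, with a median of 49.9. The ranges overlapped almost entirely, and the yolk sac was the higher tissue in 36 of 66 concepti. The log2 fold change, yolk sac over embryo, was 0.00 at 5-6 somite pairs (95% confidence interval -0.16 to 0.17, adjusted p = 0.982) and 0.17 at 7-9 (-0.03 to 0.38, adjusted p = 0.108). Igf1r, the receptor for both insulin-like growth factors, ranged from 199 to 609.9 in embryos, with a median of 319.5, and from 19.6 to 242 in yolk sacs, with a median of 126. The embryo was higher in all 66 concepti. Igf1r was lower in the yolk sac by log2 fold changes of -1.19 ± 0.09 (SE, adjusted p = 2.35e-20) at the early and -1.50 ± 0.10 (adjusted p = 6.72e-23) at the later stage. Consequently, the balance of the receptors differed by tissue: the ratio of Igf1r to Insr had group medians of 6.13 to 7.31 in embryos and 2.05 to 2.79 in yolk sacs.

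Irs1, one of the docking proteins, ranged from 56.0 to 214 in embryos, with a median of 109.9, and from 12.8 to 66.5 in yolk sacs, with a median of 34.7. It was higher in the embryo in all 66 concepti, although the ranges touched. Its log2 fold changes were -1.46 ± 0.10 (adjusted p = 2.71e-23) and -1.69 ± 0.10 (adjusted p = 2.31e-25). Irs2, the second docking protein, ranged from 89.2 to 268 in embryos, with a median of 197, and from 51.5 to 288 in yolk sacs, with a median of 186. The embryo was higher in 44 of 66 concepti, and log2 fold changes of -0.04 (95% confidence interval -0.20 to 0.13) and -0.10 (-0.28 to 0.07) did not pass the test. The ratio of Irs2 to Irs1 thus had group medians of 1.63 to 2.05 in embryos and 4.47 to 5.66 in yolk sacs.

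Igf1, the ligand, had a median of 28.1 normalized counts in embryos (11.4 to 57.0) and 106 in yolk sacs (44.0 to 167). The yolk sac was higher in all 66 concepti, and the ranges overlapped only slightly. Its log2 fold changes were 1.94 ± 0.11 (adjusted p = 6.03e-27) and 1.93 ± 0.08 (adjusted p = 1.9e-34). Igf2, the second ligand and not a member, had group medians of 851 to 1058 in embryos and 2047 to 2378 in yolk sacs, and was higher in yolk sacs by log2 fold changes of 1.32 and 1.24.

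Of the binding proteins, Igfbp1 showed the largest difference between the tissues among the members. It ranged from 5.04 to 139 normalized counts in yolk sacs, with a median of 24.3, and from 0 to 5.90 in embryos, where 19 of 66 libraries held no molecule and none more than 7. All yolk sacs exceeded the embryo of their conceptus, with log2 fold changes of 5.26 ± 0.34 and 4.21 ± 0.28. Igfbp1 failed the filter on low counts in fits of embryos alone and entered these fits through its yolk sac counts. Its passing of the test was thus largely set by the filter, and the size of both values rests on the 0 to 7 molecules of an embryo. On average, embryos held 2.46% (early) and 4.93% (later) of the yolk sac level of Igfbp1. The corresponding share for the 10 visceral endoderm markers was 1.57% to 4.87% (median 2.80%) and 1.30% to 3.32% (median 1.99%). Across embryos of a group, the mean log2 level of these markers and that of Igfbp1 had Pearson's r of 0.128 to 0.353 (4 groups). None of 40 such relations over the 10 members passed a permutation test after adjustment (lowest adjusted p = 0.931 for r and 0.731 for Spearman's rho).

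Igfbp4 was higher in the yolk sac, with a median of 1545 (635 to 2203) against 824.5 in embryos (479.6 to 1103), in 64 of 66 concepti, and its log2 fold changes were 0.98 ± 0.06 (adjusted p = 3.27e-24) and 0.86 ± 0.07 (adjusted p = 1.59e-18). By contrast, Igfbp5 and Igfbp2, the convergent neighbors on chromosome 1, were both higher in the embryo. Igfbp5 had medians of 318 in embryos (163 to 602) and 150.2 in yolk sacs (73.6 to 334), was the higher in 64 of 66 embryos, and differed by -0.82 ± 0.10 (adjusted p = 3.11e-12) and -1.30 ± 0.09 (adjusted p = 3.43e-22). Igfbp2 had medians of 317 (153 to 529) and 189.5 (101 to 599.5), was the higher in 57 of 66 embryos, and differed by -0.64 ± 0.10 (adjusted p = 3.96e-08) and -0.55 ± 0.10 (adjusted p = 5.7e-07). Igfbp3, the main carrier of these growth factors in adult serum, was low in both tissues, at medians of 22.9 (4.17 to 46.4) and 19.0 (4.81 to 42.9), and its ranges coincided. At 5-6 somite pairs its log2 fold change of -0.30 ± 0.14 passed the test narrowly (adjusted p = 0.0425), and it was not called without any one of 11 of the 19 litters (adjusted p up to 0.138, without N24M29). At 7-9 it was 0.09 (95% confidence interval -0.19 to 0.38).

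The mixture of binding proteins therefore differed between the tissues. As a share of the summed counts of the 5, Igfbp4 made up a median of 53.2% to 58.5% in the groups of embryos and 76.7% to 78.9% in those of yolk sacs. Igfbp2 and Igfbp5 each gave 18.6% to 23.6% in embryos and 7.05% to 11.7% in yolk sacs. Igfbp1 reached medians of 1.05% to 2.1% in yolk sacs. The sum of the 5 had medians of 1396 to 1564 normalized counts in embryos and 1833 to 2043 in yolk sacs.

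Igfbp1 was also the most variable member among yolk sacs of a group. Its coefficient of variation was 69.2% to 99.8%, and the highest yolk sac of a group was 10.4 to 27.5 times the lowest, whereas for Igfbp4 the coefficient of variation was at most 22.99%. Litter means at 5-6 somite pairs ranged from 5.83 to 139 for normal and from 8.66 to 99.0 for diabetic dams. Littermates also differed: the early yolk sacs of dam D24M15 ranged from 15.8 to 109.8, those of D28M53 from 48.5 to 137, and those of N24M21 from 19.5 to 106, while those of N28M06 ranged from 5.04 to 14.7. Because Igfbp1 is a well-known product of the decidua, its level was set beside the decidual markers. The later yolk sac with the highest decidual sum (719, dam D24M15) had 28.5 normalized counts of Igfbp1, near its group's median of 24.9. Of the early yolk sacs of the same dam with decidual sums of 339 and 194, the former had 109.8 and the latter 15.8. Markers of trophoblast, 6 in all and mostly Plac1 and Ascl2 in their sum, also varied widely among yolk sacs, from 9.85 to 1084. Their medians for normal and diabetic dams were 178 and 255 at the early stage and 94.3 and 102 at the later. The relation of Igfbp1 to these markers was not tested.

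In embryos with 7-9 somite pairs, maternal diabetes was accompanied by lower Igf1r, and by lower values of Insr, Irs1, Irs2, Igfbp2 and Igfbp3 that did not pass the test. Of 9 members tested, 1 was called by edgeR's quasi-likelihood test with Benjamini-Hochberg adjustment, against 9.09% of all genes tested, and 6 had an unadjusted p under 0.05. The share of all genes with an unadjusted p under 0.05 was not computed for any comparison. Counts of members at that threshold therefore have no background beside them and are not read as a result about the members. The median log2 fold change, diabetic over normal, was -0.24 for the members and -0.01 for all genes tested. Igfbp1 had too few molecules in embryos to be tested.

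Igf1r ranged from 232 to 480.2 normalized counts, with a median of 336, in later embryos of normal dams and from 202 to 367, with a median of 303, in those of diabetic dams. The groups overlapped, but the higher values were those of normal dams. The log2 fold change was -0.30 ± 0.09 (SE, 95% confidence interval -0.48 to -0.11, adjusted p = 0.0391). Means of litters ranged from 288 (dam N28M06) to 419.6 among 7 normal litters and from 214 (dam D28M24) to 339 (dam D28M36) among 6 diabetic litters. The means of the diabetic litters were all (6 of 6) under the median of the normal litter means, 374, a count that Irs1, Irs2 and Igf1 shared. The call was lost when dam D24M15 (adjusted p = 0.0737), D28M23 (0.054), D28M24 (0.0598), D28M31 (0.122), N24M21 (0.0773), N24M29 (0.0618), N28M03 (0.0565), N28M07 (0.123) or N28M30 (0.0528) was left out, with log2 fold changes of -0.34 to -0.24 over all 13 omissions. An exact permutation test of litter means gave a difference of -0.34 on the log2 scale (two-sided p = 0.0175, adjusted p = 0.233 over 40 such tests, smallest possible p = 0.000583).

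Insr ranged from 31.8 to 66.3, with a median of 48.2, in later embryos of normal dams and from 17.6 to 51.1, with a median of 41.8, in those of diabetic dams. Its log2 fold change was -0.32 ± 0.11 (95% confidence interval -0.55 to -0.10, adjusted p = 0.0609). Irs1 ranged from 71.5 to 158, with a median of 112, and from 68.1 to 132, with a median of 91.95. Both groups overlapped for either gene, with the diabetic groups shifted to lower values. The log2 fold change of Irs1 was -0.32 ± 0.12 (-0.56 to -0.09, adjusted p = 0.071), and it was -0.47 with an adjusted p of 0.032 without dam D24M15. Irs2 ranged from 133 to 268, with a median of 215, and from 129 to 233, with a median of 189.6, and its log2 fold change of -0.22 ± 0.09 had an adjusted p of 0.102. Without dam N28M30 it was -0.25 with an adjusted p of 0.0436. As for Igf1r, all 6 diabetic litters lay below the normal median for Irs1 and Irs2, and 5 of 6 did so for Insr. The count was also 6 for Igf1, 5 for Igfbp3 and Igfbp4, 4 for Igfbp2, 3 for Igfbp1 and 1 for Igfbp5. For Igfbp4 it went with a difference of only -0.02 (p = 0.888, exact permutation test of litter means). Such counts were not computed over all genes and are not read as a result about these members. Exact permutation tests of litter means gave differences of -0.43 for Insr (p = 0.0175) and -0.39 for Irs1 (p = 0.0169), both with an adjusted p of 0.233, and -0.28 for Irs2 (p = 0.124).

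**Figure D3:**
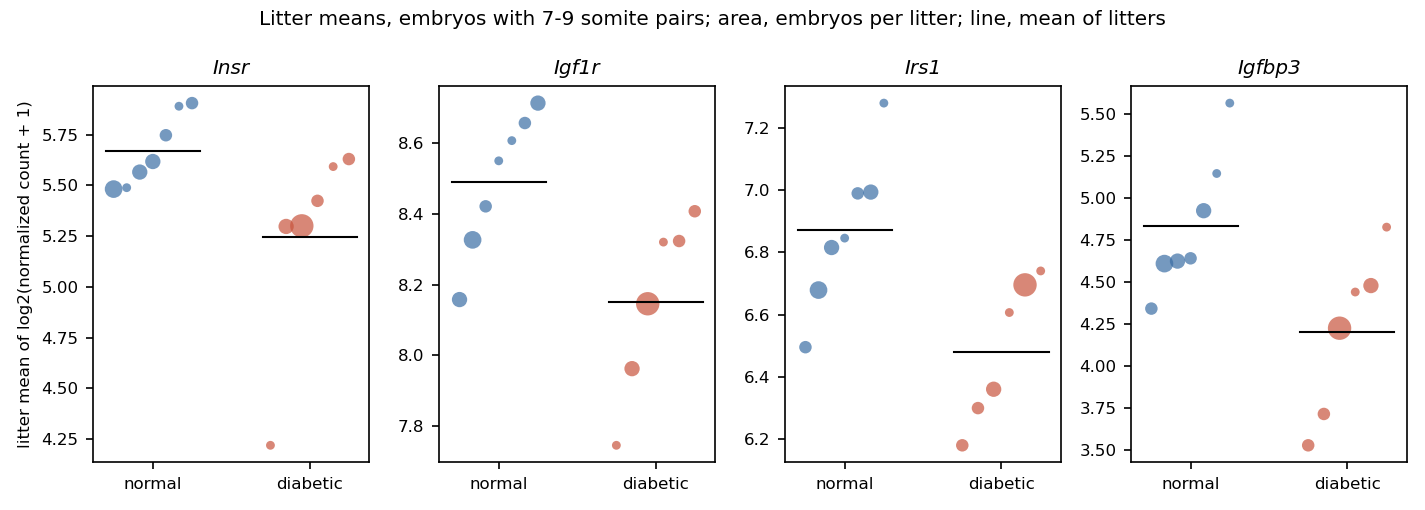
Litter means of log2(normalized count + 1) in embryos with 7-9 somite pairs for Insr, Igf1r, Irs1 and Igfbp3, with the area of a point standing for the number of embryos and the line for the mean of litters. All 6 diabetic litters lie below the median of the normal litters for Igf1r and Irs1, and the values of both conditions overlap in every panel.

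Among the binding proteins, Igfbp3 had the largest log2 fold change of the members tested in later embryos, -0.52 ± 0.20 (95% confidence interval -0.92 to -0.11), and did not pass the test (adjusted p = 0.0895). Its levels were 11.5 to 46.4, with a mean of 27.6 ± 10.6 (SD, n = 16), for normal and 4.17 to 32.3, with a mean of 18.8 ± 7.52 (SD, n = 16), for diabetic dams, from as few as 3 molecules per library. Igfbp2 ranged from 232 to 508, with a median of 346, and from 153 to 427, with a median of 295, and differed by -0.24 ± 0.11 on the log2 scale (adjusted p = 0.156). Igfbp4 and Igfbp5 had log2 fold changes near 0, at -0.04 (95% confidence interval -0.20 to 0.12) and 0.05 (-0.19 to 0.29), intervals that do not reach a 2-fold change. Igf1 was -0.16 (-0.41 to 0.09). The neural marker sum had medians of 902 and 767 in later embryos of normal and diabetic dams, and the visceral endoderm sum ranged from 96.3 to 1450 and from 141 to 3362. The part of tissue composition in these differences was not tested.

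In embryos with 5-6 somite pairs, 0 of 9 members were called by edgeR (background 1.46%) and 0 by DESeq2, and no p was under 0.05 before adjustment. The log2 fold change of Igf1r was 0.17 (95% confidence interval -0.05 to 0.39) and that of Insr 0.18 (-0.06 to 0.42). Igf1r ranged from 199 to 458, with a median of 302, in early embryos of normal dams and from 211 to 609.9, with a median of 329.5, in those of diabetic dams. Insr ranged from 31.3 to 71.0, with a median of 47.0, and from 31.9 to 107, with a median of 57.4. Both highest values belong to the same embryo of dam D28M23, and the groups overlap over most of their range. Irs1 had a log2 fold change of -0.23 (-0.48 to 0.02), close to its later value, and the remaining members lay between -0.15 (Igfbp2) and 0.11 (Igfbp3).

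**Figure D4:**
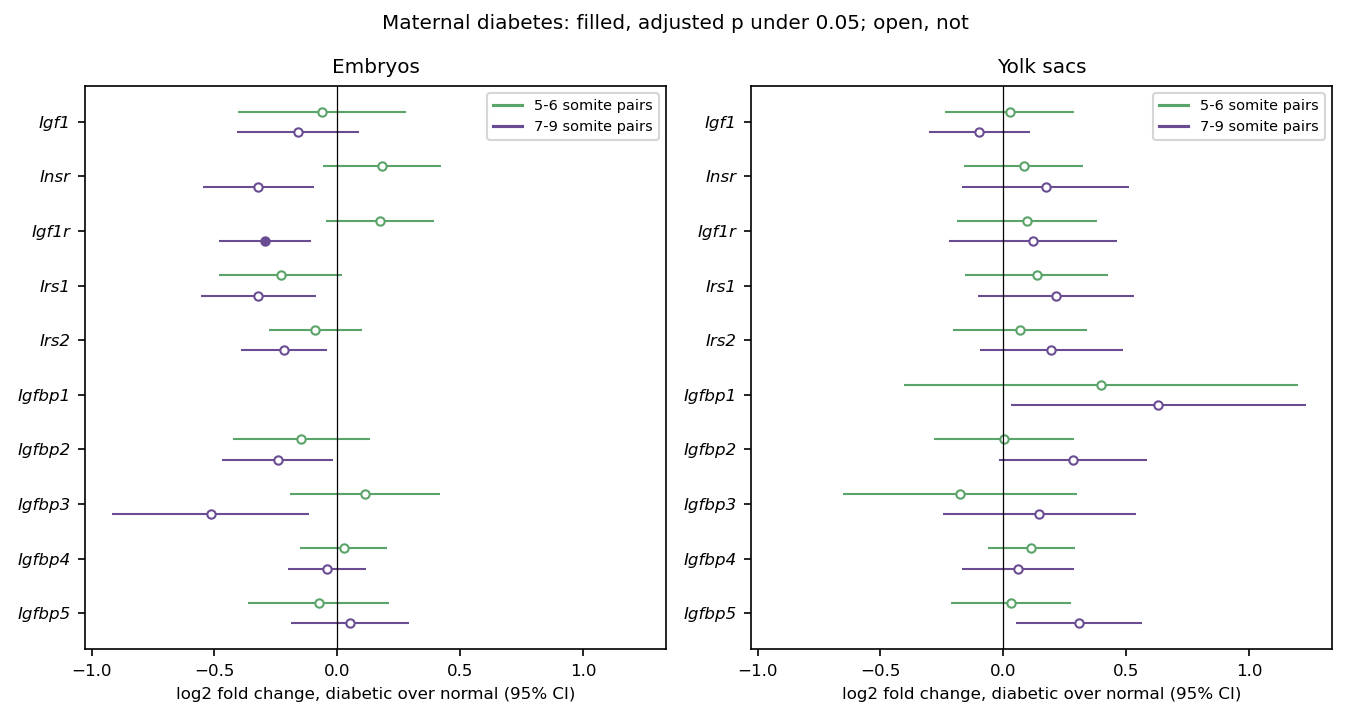
Log2 fold change of each member, diabetic over normal, with its 95% confidence interval in embryos and yolk sacs at 5-6 and 7-9 somite pairs (filled points, adjusted p under 0.05). Igf1r in later embryos, at -0.30, is the single filled point, and Igfbp1 was not tested in embryos.

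The difference between the stages was tested directly as an interaction in embryos, and 2 of 9 members passed (background 8.7%). The diabetic difference was lower at the later stage by a log2 value of -0.49 ± 0.16 for Insr (95% confidence interval -0.82 to -0.16, adjusted p = 0.0473) and -0.46 ± 0.14 for Igf1r (-0.74 to -0.17, adjusted p = 0.0386). Igfbp3 followed at -0.62 (adjusted p = 0.0982). For Igf1r, the call was lost without dam D24M15, D28M23, D28M24, D28M31, D28M53, N28M03, N28M06, N28M07, N28M22, N28M25 or N28M30 (-0.49 to -0.37, adjusted p = 0.0507 to 0.113). For Insr it was lost without D23M11, D24M15, D24M22, D28M02, D28M23, D28M24, D28M31, D28M36, D28M53, N24M21, N28M03, N28M06, N28M22, N28M25 or N28M30 (-0.51 to -0.42, adjusted p = 0.0534 to 0.128). Without the 2 libraries with the highest Insr in embryo and yolk sac, an omission chosen after seeing the data, the interactions were -0.42 for Insr (adjusted p = 0.0797) and -0.39 for Igf1r (adjusted p = 0.0682).

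In yolk sacs, 0 of 10 members were called for maternal diabetes at either stage, where 0% and 0.0194% of all genes tested were called. DESeq2 also called 0 at both stages. At 5-6 somite pairs 0 members had an unadjusted p under 0.05, and log2 fold changes ran from -0.18 (Igfbp3) to 0.40 (Igfbp1, 95% confidence interval -0.40 to 1.20). At 7-9 somite pairs 2 did, Igfbp1 and Igfbp5. Igfbp1 ranged from 7.31 to 76.0, with a median of 20.1, in later yolk sacs of normal dams and from 6.62 to 85.1, with a median of 24.9, in those of diabetic dams, and its log2 fold change was 0.63 ± 0.30 (0.03 to 1.23, adjusted p = 0.433). Igfbp5 ranged from 81.2 to 163, with a median of 133, and from 102 to 334, with a median of 148, and differed by 0.31 ± 0.13 on the log2 scale (0.05 to 0.56, adjusted p = 0.385). The conditions overlapped for both genes, over nearly the whole range for Igfbp1 and from 102 to 163 for Igfbp5, above which lay yolk sacs of diabetic dams. Intervals of the other 8 members included 0, as for Insr (0.17, -0.17 to 0.51) and Igf1r (0.12, -0.22 to 0.46), which were both 0.04 without the 4 libraries that stood apart, one of them the yolk sac with the highest Insr (159).

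Log2 fold changes in later yolk sacs were above 0 for 9 of 10 members, the exception being Igf1 at -0.10, with a median of 0.18 beside 0.02 for all genes tested. A test of the difference between the tissues in their response, yolk sac minus embryo, called 0 of 10 members at the later stage (background 0.389%), as did DESeq2. An unadjusted p under 0.05 was found for 6, a count without a background over all genes. These 6 were Igfbp3 (0.67, p = 0.0217), Irs1 (0.55, p = 0.008), Igfbp2 (0.54, p = 0.00709), Insr (0.49, p = 0.018), Irs2 (0.41, p = 0.0199) and Igf1r (0.41, p = 0.0385), in the quasi-likelihood test of edgeR with adjusted p of 0.13 or above. At the early stage 0 were called by either tool (background 0%) and 0 had an unadjusted p under 0.05.

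Between the stages, averaged over both conditions, Irs1 and Igfbp3 changed in the yolk sac. Insr changed in the embryo, where only embryos of diabetic dams had a lower median at the later stage. In yolk sacs 2 of 10 members were called (background 40%). Irs1 had medians of 35.2 and 38.4 in early yolk sacs of normal and diabetic dams and 27.8 and 34.0 in later ones, and fell by 0.34 ± 0.11 on the log2 scale (adjusted p = 0.009). Igfbp3 had early medians of 18.4 and 14.7 and later medians of 20.3 and 23.9, and rose by 0.40 ± 0.16 (adjusted p = 0.0372), a call lost without any one of 12 of the 22 litters (adjusted p up to 0.093, without N28M30). In embryos 1 of 9 was called (background 30.8%), Insr at -0.22 ± 0.08 (adjusted p = 0.0359), and this was lost without any one of 10 of 22 litters (adjusted p up to 0.109, without D24M15 or N28M05) and without the 2 libraries with the highest Insr (-0.17, adjusted p = 0.0766). Median Insr was 47.0 in early and 48.2 in later embryos of normal dams, and 57.4 and 41.8 in those of diabetic dams. Levels of primitive erythroid markers in yolk sacs rose over the same interval, from group medians of 8642 and 8426 to 18126 and 18268, and their part in these differences was not tested. The interaction of stage with maternal diabetes in yolk sacs was called for 0 of 10 members with edgeR or DESeq2 (background 0%), and none had an unadjusted p under 0.05.

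Along the number of somite pairs, from 5 to 9, 6 of 10 members were called in yolk sacs (background 39.6%). Igf1 rose by 0.09 ± 0.03 on the log2 scale per somite pair (adjusted p = 0.00921) and Igfbp3 by 0.15 ± 0.05 (adjusted p = 0.0183). Irs1 fell by 0.13 ± 0.04 (adjusted p = 0.00243), Igf1r by 0.11 ± 0.04 (adjusted p = 0.0137), Igfbp1 by 0.27 ± 0.09 (adjusted p = 0.0148) and Igfbp5 by 0.08 ± 0.03 (adjusted p = 0.0392). In yolk sacs of normal dams, median Irs1 was 34.9, 35.3, 32.4, 28.9 and 23.01 at 5, 6, 7, 8 and 9 somite pairs, and in those of diabetic dams 38.4, 41.0, 35.3, 34.0 and 34.9. The slope of Igfbp1 was lost without dam D28M53 (-0.19, adjusted p = 0.107) and with litter as a block (-0.15, adjusted p = 0.228), and that of Igfbp5 without any one of 14 litters (adjusted p up to 0.0854, without D28M02). In embryos 2 of 9 were called (background 25.6%), with Insr falling by 0.08 ± 0.03 (adjusted p = 0.0413) and Igfbp5 rising by 0.08 ± 0.03 (adjusted p = 0.0454). A single slope was fitted to both conditions. At 5, 6, 7, 8 and 9 somite pairs, median Insr was 50.1, 45.2, 54.5, 44.7 and 50.7 in embryos of normal dams, without a steady fall. In those of diabetic dams it was 52.5, 58.5, 43.9, 41.9 and 33.1. The call of Insr was lost without D24M15 (-0.06, adjusted p = 0.229), D28M23, D28M24, D28M31 or D28M53 and with litter as a block (-0.07, adjusted p = 0.0847), and that of Igfbp5 without any one of 18 of 22 litters (adjusted p up to 0.168, without N28M07).

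**Figure D5:**
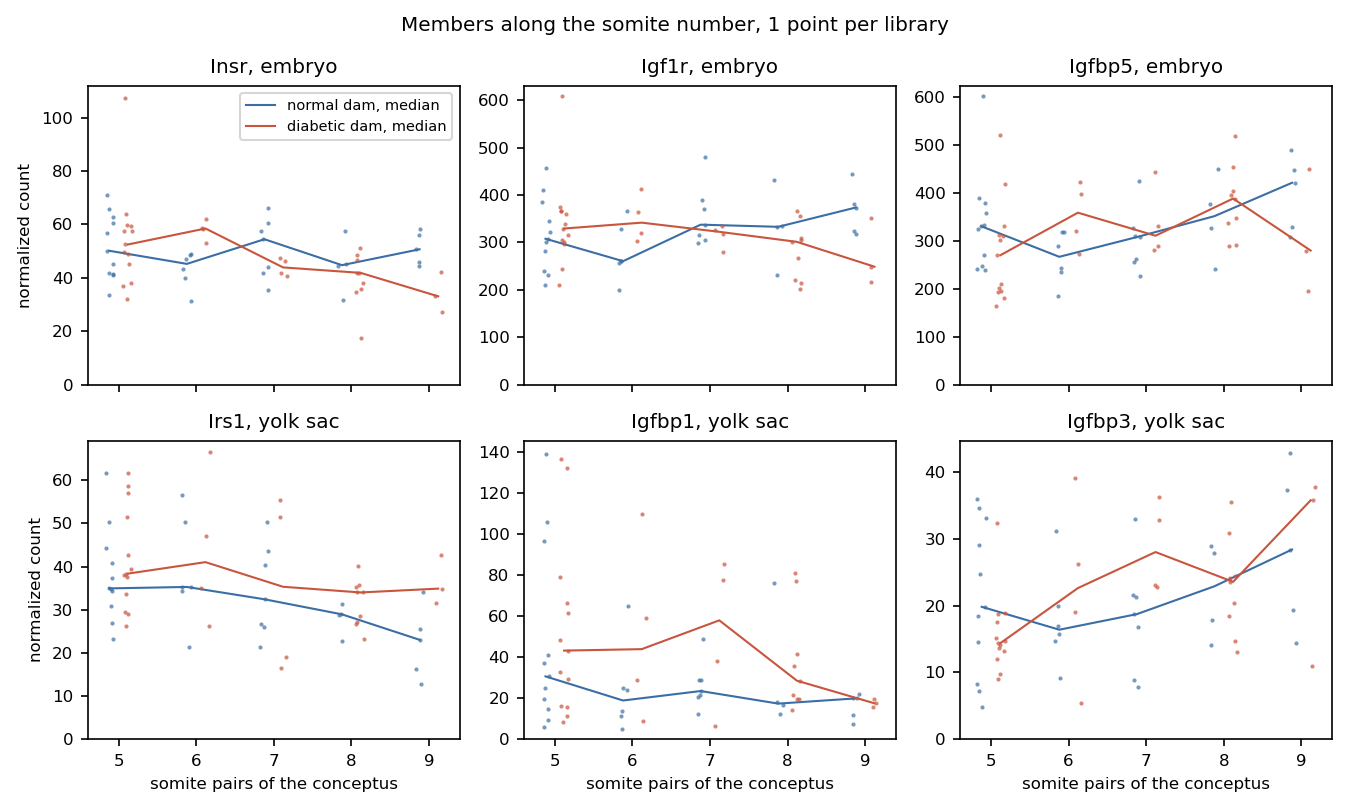
Normalized counts of Insr, Igf1r and Igfbp5 in embryos and of Irs1, Igfbp1 and Igfbp3 in yolk sacs by the number of somite pairs, 1 point per library, with lines through the medians of normal and diabetic dams. Median Insr at 9 somite pairs is 50.7 for normal and 33.1 for diabetic dams, from 5 and 3 embryos.

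Other genes of the pathway were examined from a list of 46 ligands, receptors, regulators and downstream kinases. In later embryos 38 were tested and 4 called for maternal diabetes, 1 higher and 3 lower (9.09% of all genes tested were called). Among the lower were the catalytic subunit of PI3-kinase Pik3ca (-0.36, adjusted p = 0.0236) and the mTORC2 subunit Rictor (-0.35, adjusted p = 0.0204). The regulatory subunit Pik3r2 was higher (0.45, adjusted p = 0.0132). In early embryos 0 of 38 were higher and 2 lower (background 1.46%), the docking protein Irs4 (-0.65, adjusted p = 0.0331) and the kinase Mtor (-0.39, adjusted p = 0.0379). In yolk sacs 0 of 34 and 0 of 33 were called by edgeR at the early and later stage (background 0% and 0.0194%), and 0 and 3 had an unadjusted p under 0.05. Between the tissues, 16 were higher and 16 lower in the early yolk sac of 39 tested, close to the background of 39.4% and 39.8%. In early yolk sacs alone 34 passed the filter on low counts, so some of the 39 entered this fit through their embryo counts. For such genes the call was largely set by the filter, and a large fold change rests on few yolk sac molecules. Irs4 (-7.36) and the binding protein-like gene Igfbpl1 (-4.97) differed most toward the embryo, along with Grb10, an adaptor that restrains both receptors (-1.61), and Pappa, the protease that cleaves Igfbp4 (-0.81). The adaptor Gab1 (2.04) and Igf2r, the receptor that clears Igf2 (0.93), were higher in the yolk sac.

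The genes whose levels followed a member most closely across the 66 libraries of the tissue in which it is higher, after group means were removed, were named by correlation alone. For Igf1r in embryos these included Adgrl2 (r = 0.827) and Tead1 (0.812), and for Irs2 Klhl21 (0.727), Rapgef1 (0.695) and Fbxo46 (0.677). Igfbp2 in embryos varied with Psmd8 (0.768) and the ribosomal protein genes Rps3 (0.748) and Rpl27 (0.741), and Igfbp5 with Efnb2 (0.753), Nrip1 (0.741) and Itga6 (0.730). Irs1 was closest to Urb1 (0.711), Bahcc1 (0.703) and Lrp1 (0.681). In yolk sacs, Igfbp1 varied most closely with Dnmt3l (0.743) and Frzb (0.743), Igf1 with the endothelial and macrophage gene Lyve1 (0.613), Ldb2 (0.597) and Gm10639 (0.586), and Igfbp4 with Ttyh3 (0.761), Mef2d (0.727) and Shmt2 (0.720). Insr, taken in yolk sacs by its mean although the tissues did not differ in the test, was closest to Kmt2c (0.847), R3hdm2 (0.775) and Gm44283 (0.770). These 3 values include the yolk sac of D28M36 that stood apart, with the highest Insr (159), and were not computed without it. Libraries differ in depth and tissue composition, which affect many genes at once, and Igfbp3 was too low to be included.

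Among 11 litters of diabetic dams with a numeric glucose value, from 423 to 595 mg/dl, none of 20 relations between maternal blood glucose and the litter mean of a member passed after adjustment. The strongest was Insr in yolk sacs, with Pearson's r of 0.614 (permutation p = 0.0400, adjusted p = 0.559), Spearman's rho of 0.582 (permutation p = 0.0659, adjusted p = 0.622) and r of 0.559 without the 2 litters farthest from the median glucose. The litter of D28M36, which holds the yolk sac with the highest Insr (159), was not one of those 2, and r without it was not computed. For Irs2 in yolk sacs, r moved from 0.504 to -0.0864 without those 2 litters and so rested on them.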

How the data were processed

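Per the labels and the submitters' processing notes, RNA of single embryos and yolk sacs was made into QuantSeq 3′ FWD libraries with molecular identifiers, reads were aligned to mm10 with STAR and assigned to genes with HTSeq. Versions, annotation and strand setting are not given in the sources used here. The authors deposited a table of raw counts of unique molecules per gene, with no normalization. Duplicate libraries of 2 concepti, 4 in all, were left out.

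From these counts, levels were computed with DESeq2 size factors, and differences were tested with edgeR 4.0.16 (R 4.3.3), using TMM factors, filterByExpr (minimum count 10), the quasi-likelihood test and a threshold of 0.05 after Benjamini-Hochberg adjustment, which covered every gene tested. Intervals are 95%. Fits took all 4 groups of a tissue for stage and somite slope, the 2 conditions of a tissue and stage for maternal diabetes, and the 4 groups of a stage for tissue. Litter means of log2(normalized count + 1) were compared by exact permutation. Models for maternal diabetes were tested on simulated data. The simulated counts held no litter effect, so they cannot show how the tests behave when littermates resemble each other. Members, pathway and marker lists were chosen with earlier results of these data known. The genes named are all 10 members, pathway genes past the threshold, and the 3 genes with the highest correlation per member (mean of at least 50 in 1 of the 8 groups for the member, and of at least 10 in that tissue for the other gene). A few of these genes are not reported here.

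Alternatives were DESeq2 1.42.0, RLE factors, other filters on low counts, litter as a random block with limma 3.58.1, counts summed per litter, title number or sex as covariate, and omission of each litter. Embryo and yolk sac of a conceptus are paired by origin. Their deviations from the group means had a median correlation of 0.110 at 5-6 and 0.0454 at 7-9 somite pairs. Molecular identifiers make counts close to counts of molecules, and a single low count, such as 3, carries a large counting error.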

Additional observations from a re-analysis of the deposited data

Results flagged for a closer look

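Both results below stood out because the effect of maternal diabetes in embryos differed between the somite stages in a test of that difference itself. The interaction was -0.49 on the log2 scale for Insr and -0.46 for Igf1r, from early differences of 0.18 and 0.17 to later differences of -0.32 and -0.30. Of these, the later difference of Igf1r passed the test, while that of Insr (adjusted p = 0.0609) and both early differences did not. Leaving out single litters took Insr over the threshold in 15 of 22 cases and Igf1r in 11 of 22, with the sign unchanged.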

How the results depend on the processing

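Where a member's unadjusted p was under 0.05, no log2 fold change took the other sign in any of 1471 refitted values. At larger p, 64 of 1109 values under other settings and 84 of 1637 without single litters did, none of them called, such as Igfbp5 in early embryos (-0.08 to 0.20) and Igf1r in later yolk sacs (0.12 to -0.01) with title number 28 only, and Igfbp5 in early yolk sacs (0.03 to -0.05) without the 4 libraries that stood apart. The number of members called for maternal diabetes in later embryos, 1, became 2 with DESeq2, 4 with title number as covariate, and 0 with all 8 groups in 1 fit, counts summed per litter, exact permutation of litter means, litter as random block, no filter, title number 28 only (a number of unstated meaning in the sample titles), or without the 2 concepti with unequal sex labels. Restriction to title number 28 and omission of the 2 libraries with the highest Insr or of the 4 that stood apart were chosen after seeing the data. For the stage of embryos, 1 became 2 with the litter block and 0 with no filter or title number 28 only, and stayed at 1 without the 2 libraries with the highest Insr, where Insr was lost (adjusted p = 0.0766) and Igfbp5 gained (0.0301). Its interaction with diabetes, 2, became 0 with 8 groups in 1 fit, no filter or without the 2 libraries with the highest Insr, and 1 with sex as covariate, without the concepti with unequal sex labels or without the 4 that stood apart, and 3 with title number as covariate, which added Igfbp3 (-0.73, adjusted p = 0.0300). For the stage of yolk sacs, 2 became 1 with no filter and 4 with DESeq2, RLE factors, 8 groups in 1 fit, duplicates added, a mean count of at least 10, or either omission of libraries. The somite slope in embryos, 2, became 0 with no filter and 1 with DESeq2, RLE factors, a mean of at least 10, title number 28 only, title number as covariate, or without the highest Insr. It stayed at 2 with the litter block, where Insr was lost (-0.07, adjusted p = 0.0847) and Igf1 gained (0.10, adjusted p = 0.0416).

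With the conceptus as replicate block, which pairs embryo and yolk sac, tissue calls stayed at 8 and 7 members and interactions with diabetes at 0 and 0, and no call changed. Under other settings, the tissue call of Insr at 7-9 somite pairs was gained with all 8 groups in 1 fit (0.20, adjusted p = 0.0480). It was also gained without D28M31 (0.0301), N28M06 (0.0411) or N28M07 (0.0314). That of Igfbp3 at 5-6 was lost with no filter (0.0536), title number 28 only (0.131) or without the 4 libraries that stood apart (0.0581). Across omissions of single litters, the members called ranged from 0 to 0 and 0 to 1 for diabetes in early and later embryos, 0 to 0 in yolk sacs of both stages, 7 to 8 for tissue at either stage, 0 to 0 for both tissue interactions, 0 to 2 for stage, its interaction and slope in embryos, 1 to 5 for stage, 0 to 0 for its interaction and 5 to 6 for slope in yolk sacs. The cause of these changes was not tested. Low counts limit Igfbp3 and embryonic Igfbp1 most.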

Other observations

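The 4 duplicate libraries, from embryo and yolk sac of 2 concepti, correlated with their originals at r of 0.990 to 0.996 on the log2 scale over all genes. The embryonic labels of sex differed from those of the yolk sac in 2 concepti. In later embryos of normal dams, Igfbp3 had Pearson's r of -0.505 with the mean log2 level of the visceral endoderm markers (permutation p = 0.0451, Spearman's rho -0.335, permutation p = 0.206), and the adjusted p over the 40 relations was 0.931 or above.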
